A study of Bos taurus with 4 samples.

Results

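Pre-mRNA splicing removes introns from new transcripts in the spliceosome, a machine built from small nuclear ribonucleoproteins (snRNPs) whose RNAs are held in rings of Sm or LSm proteins. SR proteins and heterogeneous nuclear ribonucleoproteins (hnRNPs) bind exons and introns and steer the choice of splice site, and CLK kinases phosphorylate SR proteins. In T cells, alternative splicing changes on activation, the best known case being the variable exons of the phosphatase gene CD45.

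The 95 genes described here are those whose platform symbol begins with SRSF, SFRS, HNRNP, SF3A, SF3B, SNRP, PRPF, U2AF, LSM, RBM, CLK or TRA2, with a digit where the family numbers its members. They are covered by 146 probe sets, of 9155 named genes and 24016 probe sets tested. The rule reads names only, though it was set with earlier results of these data known. The name covers genes with other roles too, such as LSM1 and LSM14A, which act on cytoplasmic mRNA, and RBM19 and RBM28, which act in ribosome production. SRSF2, U2AF2, CLK4, SNRPF and HNRNPA1 had no probe set with a gene name of its own and were not analysed here.

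The cells were bovine gamma delta T cells, sorted from blood to over 97% purity, rested overnight and then cultured for 4 h with apple polyphenols in aqueous extract (APP, 42.2 µg/ml) or with phosphate-buffered saline (PBS), the vehicle. Calves 301 and 303 each gave an APP and a PBS array, so that each group holds 2 arrays. The labels give an age of 1 to 6 months, and the design text calls the animals neonatal. All values below are log2 ratios of a gene to its own median over the 4 arrays, averaged over its probe sets, and a change is the APP value minus the PBS value of the same calf. Levels were not kept by this scale, so the cell type could not be checked against marker levels and no gene can be set against another by its level.

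Beside the splicing factors, marker genes of cell types were counted, where 23.0% of all genes rose and 29.7% fell. The 10 genes listed for gamma delta T cells include general T cell genes such as CD3D, CD3E and CD3G. Of these 10, 1 rose and 7 fell. Their mean log2 ratios were -0.36 and -0.25 in the APP arrays against 0.15 and 0.24 in the PBS arrays. Monocyte and dendritic cell genes rose in 2 of 15 cases and did not fall, with means of 0.04 and 0.17 in APP and -0.16 and -0.09 in PBS. CD68 stood far from the rest of that list (0.64 and 1.43 in APP, -1.27 and -1.28 in PBS), whose median change was 0.05. Of 4 B cell genes 3 fell, with means of -0.29 and -0.30 in APP and 0.22 and 0.27 in PBS. Of 9 alpha beta T cell and NK cell genes 2 rose and 2 fell, with means of -0.24 and 0.18 in APP and -0.30 and 0.13 in PBS. In that list CD8A rose (-0.29 and 0.98 in APP, -1.69 and 0.22 in PBS) and CD8B fell (-1.70 and 0.59 in APP, -1.06 and 1.24 in PBS). Both lay lower in calf 301 than in calf 303 under either treatment, and whether the sorted cells differed between the calves was not tested. In such bulk RNA, fewer cells of a type and less RNA per cell cannot be told apart, and the part of these markers in the results below was not tested. The hybridization controls bioB, bioC and bioD also stood higher in the APP arrays, and scaling the arrays to them (the hybridization control scale) lowers the change of every gene by 0.88, which takes the median of all genes from 0.01 to -0.87. Changes are given relative to the deposited scale.

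With APP, 7 of 8 SNRP genes rose (87.5%, against 23.0% of all genes), though all 8 lay below 0 on the hybridization control scale. Of 12 SR and TRA2 genes, 5 fell (41.7%, against 29.7% of all genes). The difference between these families was not tested. Of 7 LSM genes of the U6 ring none rose and 1 fell, where 23.0% of all genes rose and 29.7% fell. Of the 95 genes, 37 (38.9%) rose, 23 (24.2%) fell and 35 were not called at an adjusted p of 0.05 by limma, the calf being a block in the fit, beside 23.0% of all genes that rose and 29.7% that fell. Adjusted p ran from 9.19e-05 to 0.047 among the rises and from 5.81e-05 to 0.0463 among the falls. The median change was 0.12, against 0.01 for all genes, and it was 0.08 and 0.13 in calves 301 and 303. On the hybridization control scale, 1 gene rose and 80 fell, against 270 and 8246 of all genes, and rises were 1.23% of the members' calls instead of 61.7%. In fits with no block, leaving out APP 301 gave 22 rises and 12 falls, leaving out APP 303 gave 23 rises and 13 falls, leaving out PBS 301 gave 11 rises and 8 falls, and leaving out PBS 303 gave 11 rises and 9 falls.

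Most of the changes were small. The median size of a change, without its sign, was 0.339, against 0.315 for all genes, and 5.26% of the members changed by at least 1 in the mean of the calves, against 12.1% of all genes. Changes of at least 2-fold in each calf were a rise of RBM14 and falls of RBM43, U2AF1L4 and HNRNPLL, beside 3.5% of all genes that rose and 6.29% that fell by that much. The change had the same sign in both calves for 90 of the 95 genes (94.7%), against 84.7% of all genes. Both APP arrays lay above both PBS arrays for 48 members (50.5%, against 36.6% of all genes) and below them for 34 (35.8%, against 37.2%).

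**Figure D1:**
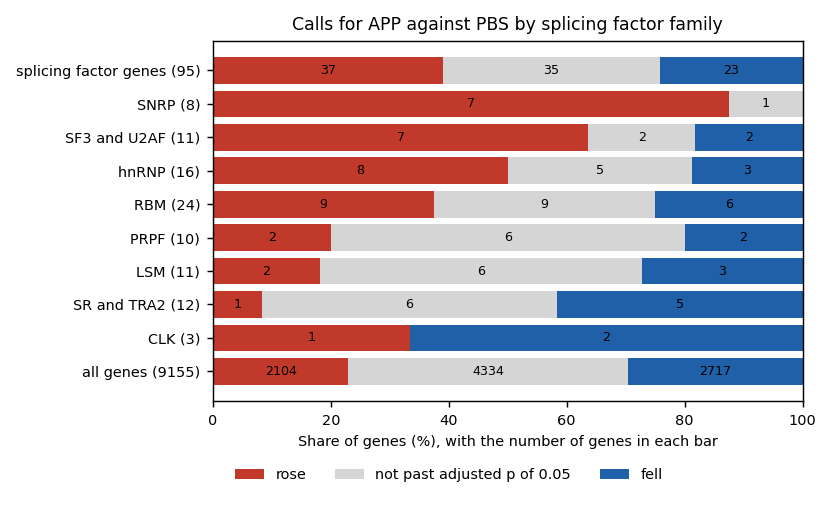
Share of genes (horizontal axis, %) that were called as risen, fallen or neither at an adjusted p of 0.05 for APP against PBS, for the 95 splicing factor genes, their families and all 9155 genes, with gene numbers in the bars. SNRP has 7 rises and no fall, SR and TRA2 1 rise and 5 falls; scaled to the hybridization controls, SNRP has no rise.

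**Figure D2:**
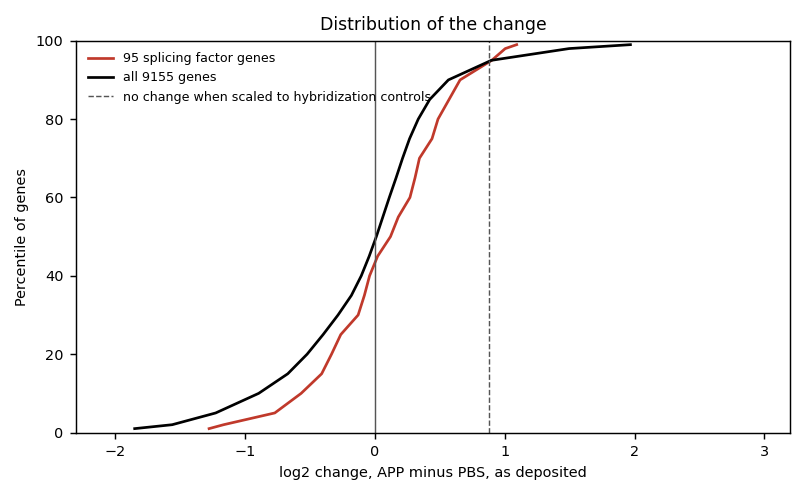
Percentile of genes (vertical axis) against the log2 change, APP minus PBS (horizontal axis), for the splicing factor genes and all genes, drawn between percentiles 1 and 99. The splicing factor line lies to the right of the line of all genes from percentile 1 to 95 and left of it at 98 and 99, and the dashed line at 0.88 marks where a gene stands at no change on the hybridization control scale.

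The SNRP genes encode proteins of the snRNPs themselves. Of 8 measured, 7 rose (87.5%, against 23.0% of all genes), none fell (against 29.7%) and SNRPC did not pass. All 8 lay below 0 on the hybridization control scale (median -0.32, against 0.56 as deposited). SNRPB, which encodes a protein of the Sm ring, had log2 ratios of 0.27 and 0.37 in the APP arrays of calves 301 and 303, against -0.40 and -0.37 in their PBS arrays. Both APP arrays thus stood clear of both PBS arrays, a change of 0.70 ± 0.05 (SD, n = 2 calves; adjusted p = 0.000916, limma). For SNRPD3, also of the Sm ring, the ratios were 0.18 and 0.36 in APP and -0.29 and -0.33 in PBS (change 0.58 ± 0.15, adjusted p = 0.00321 in limma). The ring proteins SNRPD2 (0.33 and 0.21 in APP, -0.26 and -0.28 in PBS) and SNRPG (0.13 and 0.70 in APP, -0.27 and -0.17 in PBS) rose by 0.54 and 0.64 on average. The APP arrays of the 2 calves were close for SNRPD2 and far apart for SNRPG, whose rise was 0.40 and 0.88 in calves 301 and 303.

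Proteins carried by a single snRNP were mixed in size. SNRPA1, of the U2 snRNP, rose by 0.61 and 0.63 in calves 301 and 303 (ratios of 0.14 and 0.44 in APP, -0.47 and -0.19 in PBS). Its partner SNRPB2 rose by 0.18 and 0.47 (adjusted p = 0.0439, limma). SNRPA, of the U1 snRNP, rose by 0.53 and 0.15 (adjusted p = 0.047, limma), and SNRPC, of the same particle, changed by 0.13 and 0.25 (adjusted p = 0.141, limma). Without the calf block 4 of the 8 genes rose, SNRPA, SNRPB2 and SNRPG no longer passing. Both APP arrays lay above both PBS arrays for all 8, against 36.6% of all genes, so leaving out 1 array could not turn the direction. With 1 array left out in fits without the block, 5 rose without APP 301, 3 without APP 303, 1 without PBS 301 and 2 without PBS 303, and every SNRP gene that had risen kept its direction in them.

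SF3A and SF3B proteins belong to the U2 snRNP and hold the branch point, and U2AF proteins mark the end of the intron for it. In this group 7 of 11 genes rose (63.6%, against 23.0% of all genes) and 2 fell (18.2%, against 29.7%). The median was 0.34 as deposited and -0.54 on the hybridization control scale. SF3B3 had ratios of 0.27 and 0.29 in APP and -0.37 and -0.41 in PBS, a rise of 0.67 ± 0.04 (SD, n = 2 calves; adjusted p = 0.00113, limma). SF3A2 rose by 0.57, SF3B4 by 0.54, SF3B5 by 0.43, SF3B6 by 0.43 and SF3A3 by 0.31. In each, both APP arrays lay above both PBS arrays, as in 36.6% of all genes. U2AF1, which reads the AG at the intron's end, rose by 0.34 (0.12 and 0.16 in APP, -0.16 and -0.24 in PBS). All of these 7 stood below 0 on the hybridization control scale.

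SF3B1, the subunit that contacts the branch point, went the other way. Its ratios were -0.11 and -0.33 in APP and 0.22 and 0.09 in PBS, a fall of 0.37 on the log2 scale (adjusted p = 0.0153, limma), and its 4 probe sets ran from -0.66 to 0.12. SF3B2 changed by -0.34 and -0.13 in calves 301 and 303 (adjusted p = 0.0946, limma). The widest gap between the calves among all members was that of SF3A1, with -0.30 and 0.31 in calves 301 and 303, whose arrays overlapped (adjusted p = 0.977, limma). U2AF1L4, a paralogue of U2AF1, had the second largest fall of the 95 genes. Its ratios were -0.62 and -0.96 in APP and 0.48 and 0.42 in PBS, a change of -1.25 ± 0.20 (SD, n = 2 calves; adjusted p = 0.000126, limma), opposite in sign to U2AF1 on the deposited scale. Left out in turn without the block, the fits gave 2 rises in this group without APP 301, 5 without APP 303, 1 without PBS 301 and 1 without PBS 303, and SF3B1 passed in none of them, nor without the block alone.

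SR proteins bind exonic enhancers through RNA recognition motifs and carry a tail rich in arginine and serine. Of the 12 SR and TRA2 genes, 5 fell (41.7%, against 29.7% of all genes), 1 rose (8.33%, against 23.0%) and 6 did not pass. Their median was -0.20. SRSF6 had ratios of -0.50 and -0.36 in APP and 0.37 and 0.28 in PBS, a change of -0.76 ± 0.16 (SD, n = 2 calves; adjusted p = 0.000916, limma). For SRSF7 the ratios were -0.32 and -0.40 in APP and 0.32 and 0.24 in PBS, and the fall was 0.64 in each calf on the log2 scale (adjusted p = 0.00134, limma). SRSF5 stood at -0.30 and -0.38 in APP and at 0.27 and 0.23 in PBS, a change of -0.60 ± 0.03 (SD, n = 2 calves). In these 3 genes the APP arrays lay together at one end and the PBS arrays at the other. Both APP arrays lay below both PBS arrays in 37.2% of all genes. SRSF4 fell less, by 0.33 and 0.34 in calves 301 and 303. It passed neither without the block nor in any fit that left out an array.

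TRA2A, a homologue of the fly splicing regulator transformer 2, had ratios of -0.23 and -0.44 in APP and 0.36 and 0.18 in PBS (change -0.61 ± 0.02, SD, n = 2 calves; adjusted p = 0.00176, limma), and its 2 probe sets agreed at -0.60 and -0.61. Its paralogue TRA2B changed by -0.08 and -0.03 (adjusted p = 0.65, limma), and the difference between the paralogues was not tested. SRSF1, the prototype SR protein, changed by 0.02 and 0.00 in the calves, SRSF3 by -0.13 and -0.02, SRSF9 by 0.29 and 0.14, SRSF10 by -0.37 and -0.17 and SFRS18 by -0.16 and -0.11. None of these 5 passed, with adjusted p from 0.0586 (SRSF10) to 0.95 (SRSF1) in limma's test. The member that rose was SRSF11 (0.30 on average, adjusted p = 0.0438), which rests on probe sets that moved in opposite directions, given below, and which passed neither without the block nor in any fit that left out an array. Falls numbered 4 without APP 301, 3 without APP 303, 2 without PBS 301 and 4 without PBS 303, and SRSF6 and SRSF7 fell in every fit run.

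The CLK kinases phosphorylate the tails of SR proteins. CLK1 had ratios of -0.43 and -0.21 in APP and 0.15 and 0.31 in PBS, a change of -0.55 ± 0.04 (SD, n = 2 calves; adjusted p = 0.00292, limma). Of its 2 probe sets the larger fall was -1.01 and the smaller change -0.08, which did not pass. CLK2 stood at -0.19 and -0.20 in APP and at 0.14 and 0.23 in PBS, a change of -0.38 (adjusted p = 0.0144, limma). CLK3 rose by 0.57 and 0.39 in calves 301 and 303 (ratios of 0.31 and 0.17 in APP, -0.26 and -0.21 in PBS; adjusted p = 0.00672, limma), and lay at -0.40 on the hybridization control scale. APP and PBS arrays did not overlap for any of the 3 kinases. That was so for 36.6% of all genes with APP higher and 37.2% with APP lower. None of the 3 passed without APP 301, PBS 301 or PBS 303, and CLK2 did not pass without APP 303.

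**Figure D3:**
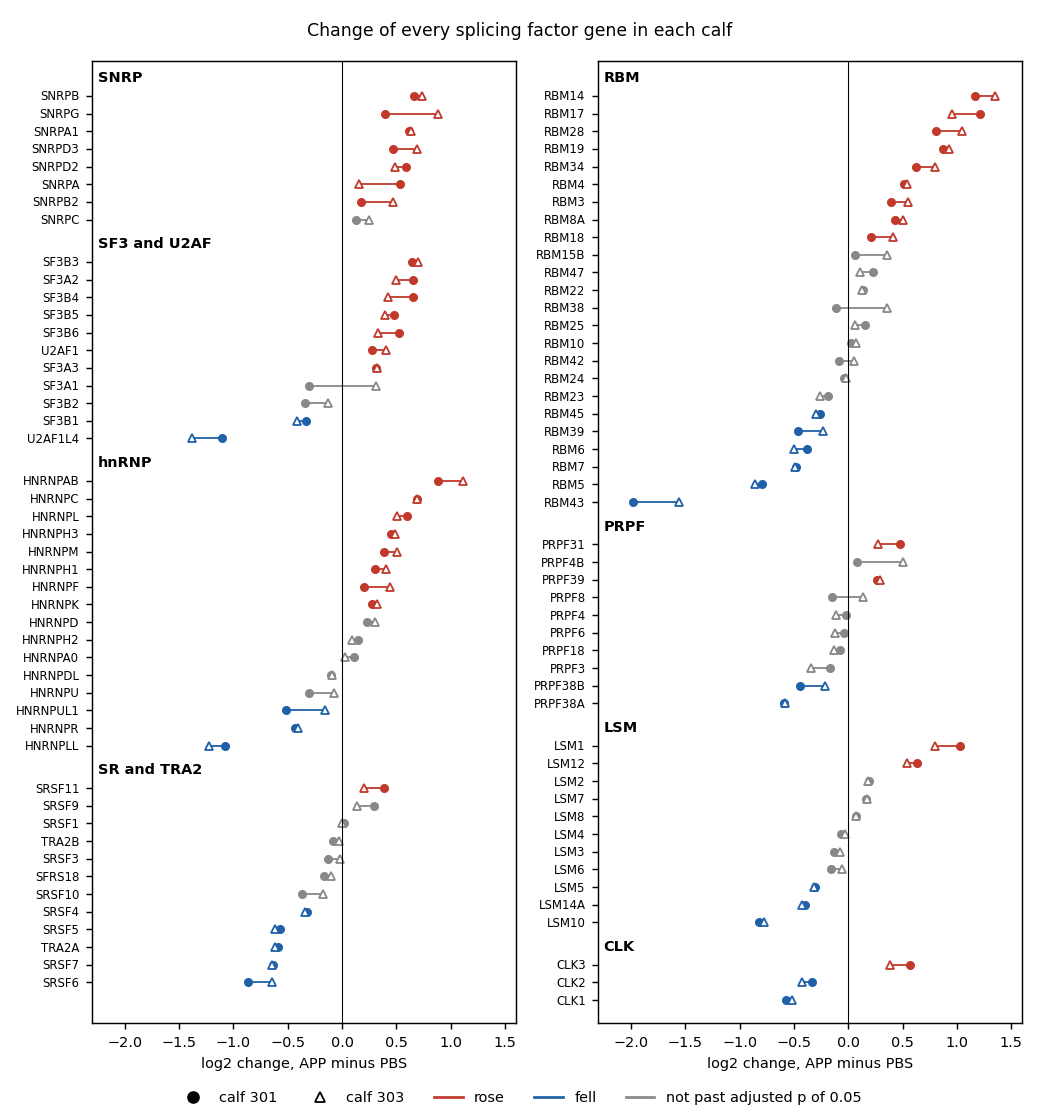
log2 change, APP minus PBS (horizontal axis), of each of the 95 genes in calf 301 (filled circles) and calf 303 (open triangles), by family and sorted by the mean, coloured by the call. RBM14 lies farthest to the right and RBM43 farthest to the left; genes left of 0.88 lie below 0 on the hybridization control scale.

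hnRNP proteins coat nascent transcripts and often favour exon skipping. Of 16 genes, 8 rose, 3 fell and 5 did not pass, where 23.0% of all genes rose and 29.7% fell. The median was 0.28, or -0.60 on the hybridization control scale. HNRNPAB had ratios of 0.35 and 0.57 in APP and -0.52 and -0.53 in PBS, a rise of 0.99 ± 0.16 (SD, n = 2 calves; adjusted p = 0.000278, limma) that was still 0.12 on the hybridization control scale. HNRNPC, which binds uridine tracts, stood at 0.25 and 0.34 in APP and at -0.43 and -0.35 in PBS, a rise of 0.69 in each calf (adjusted p = 0.000948, limma) that was -0.19 on that other scale. HNRNPL, a repressor of CD45 variable exons in human T cells, rose by 0.55 (0.36 and 0.27 in APP, -0.25 and -0.23 in PBS), or stood at -0.32 on it. The rises of HNRNPH3 (0.47), HNRNPM (0.45), HNRNPH1 (0.35), HNRNPF (0.33) and HNRNPK (0.30) were smaller, and these 5 lay between -0.58 and -0.41 on the hybridization control scale.

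HNRNPLL, the paralogue of HNRNPL that is known for CD45 exon skipping in activated T cells of human and mouse, fell most in this family. Its ratios were -0.69 and -0.64 in APP and 0.39 and 0.59 in PBS, a change of -1.15 ± 0.10 (SD, n = 2 calves; adjusted p = 0.000116, limma). All 3 of its probe sets fell, with changes of -1.43, -1.15 and -0.88. HNRNPR fell as well (-0.44 and -0.41 in calves 301 and 303), as did HNRNPUL1 (-0.52 and -0.16, adjusted p = 0.0463, limma). HNRNPD (0.26), HNRNPH2 (0.12), HNRNPA0 (0.07), HNRNPDL (-0.10) and HNRNPU (-0.19) did not pass. The rises numbered 6 without APP 301, 4 without APP 303, 2 without PBS 301 and 2 without PBS 303. Those of HNRNPC and HNRNPAB and the fall of HNRNPLL held in all of these fits. HNRNPF no longer passed when probe sets whose names end in _s_at or _x_at were left out.

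PRPF genes, named after yeast mutants with defects in RNA processing, encode spliceosome proteins of several stages. Of 10 genes 2 rose, 2 fell and 6 did not pass, near or below the shares of all genes, with a median of -0.07. PRPF38A, which joins the spliceosome before activation, fell by 0.59 and 0.58 in calves 301 and 303 on the log2 scale (-0.45 and -0.16 in APP, 0.13 and 0.41 in PBS; adjusted p = 0.00208, limma), and PRPF38B fell by 0.45 and 0.22. PRPF31, of the U4/U6.U5 tri-snRNP, rose by 0.48 and 0.27 (adjusted p = 0.0194, limma) but stood at -0.50 on the hybridization control scale. PRPF39 rose by 0.28, or -0.60 on that scale. The central scaffold PRPF8 changed by -0.15 and 0.13, and the tri-snRNP genes PRPF3 (-0.25), PRPF4 (-0.06) and PRPF6 (-0.08), the late-acting PRPF18 (-0.11) and the kinase gene PRPF4B (0.29) did not pass. Without the block no PRPF gene rose and PRPF38A alone fell. PRPF39 passed in no fit that left out an array, and PRPF31 passed only without APP 303 among them.

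LSM2 to LSM8 form the ring on U6 snRNA. None of these 7 genes rose (against 23.0% of all genes) and 1 fell (14.3%, against 29.7%). Whether the ring differs from all genes was not tested. LSM5 fell (-0.31 and -0.32 in calves 301 and 303, adjusted p = 0.029, limma), and LSM2, LSM3, LSM4, LSM6, LSM7 and LSM8 lay between -0.11 and 0.19 and did not pass. LSM5 passed in no fit that left out an array. The 4 members outside this ring all passed, 2 as rises and 2 as falls, where 23.0% of all genes rose and 29.7% fell. LSM1, which replaces LSM8 in the cytoplasmic ring that promotes mRNA decapping, had ratios of 0.46 and 0.34 in APP and -0.56 and -0.46 in PBS (change 0.91 ± 0.16, SD, n = 2 calves; adjusted p = 0.000412, limma), and stood at 0.03 on the hybridization control scale. LSM12 rose by 0.58, or stood at -0.29 on that scale. LSM10, of the U7 snRNP that processes histone mRNA, had ratios of -0.54 and -0.37 in APP and 0.28 and 0.41 in PBS (change -0.80 ± 0.03, SD, n = 2 calves; adjusted p = 0.000475, limma). LSM14A, a protein of cytoplasmic P-bodies, fell by 0.40 and 0.43 on the log2 scale.

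The RBM genes share a name for an RNA-binding motif and have varied roles, and the widest range of changes was found among them. Of 24 genes, 9 rose, 6 fell and 9 did not pass, beside 23.0% of all genes that rose and 29.7% that fell. The median was 0.13, or -0.75 on the hybridization control scale. RBM14, a coactivator found in paraspeckles, had ratios of 0.44 and 0.66 in APP and -0.72 and -0.70 in PBS, a change of 1.26 ± 0.13 (2.39-fold; SD, n = 2 calves; adjusted p = 9.19e-05, limma), the largest rise of the 95 genes. It was the member that still passed as a rise on the hybridization control scale (0.38). RBM17, a splicing factor of the early spliceosome also known as SPF45, had ratios of 0.63 and 0.37 in APP and -0.58 and -0.59 in PBS (change 1.08 ± 0.18; adjusted p = 0.000209, limma). In both genes the APP arrays lay above both PBS arrays, as in 36.6% of all genes.

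RBM28 (0.93 ± 0.16, SD, n = 2 calves) and RBM19 (0.90 ± 0.04), the genes of ribosome production, rose as well, and stood at 0.05 and 0.02 on the hybridization control scale. RBM34 rose by 0.71, the alternative splicing regulator RBM4 by 0.52, the cold-inducible RBM3 by 0.47, RBM8A, of the exon junction complex, by 0.46 and RBM18 by 0.31, and these 5 lay between -0.57 and -0.17 on that scale. Those that did not pass were RBM10, RBM15B, RBM22, RBM23, RBM24, RBM25, RBM38, RBM42 and RBM47, with changes between -0.22 and 0.21. RBM38 changed by -0.11 and 0.36 in calves 301 and 303.

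RBM43 had the largest fall of all members. Its ratios were -1.45 and -0.89 in APP and 0.54 and 0.67 in PBS, a change of -1.77 ± 0.30 (3.41-fold lower; SD, n = 2 calves; adjusted p = 5.81e-05, limma), with the PBS arrays close together and the APP arrays apart. RBM5, a regulator of alternative splicing tied to apoptosis genes, had ratios of -0.45 and -0.50 in APP and 0.35 and 0.36 in PBS (change -0.82 ± 0.04, SD, n = 2 calves; adjusted p = 0.000423, limma). Its relative RBM6 fell by 0.38 and 0.50 on the log2 scale, while the related RBM10 changed by 0.03 and 0.07 (adjusted p = 0.68, limma). RBM7, of a nuclear complex that delivers RNA to the exosome, fell by 0.48 and 0.49, RBM39, a U2AF-related protein, by 0.46 and 0.23, and RBM45 by 0.26 and 0.30. The falls numbered 4 without APP 301, 4 without APP 303, 2 without PBS 301 and 2 without PBS 303, RBM43 and RBM5 being called in all of these fits, as were the rises of RBM14, RBM17, RBM19, RBM28 and RBM34.

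**Figure D4:**
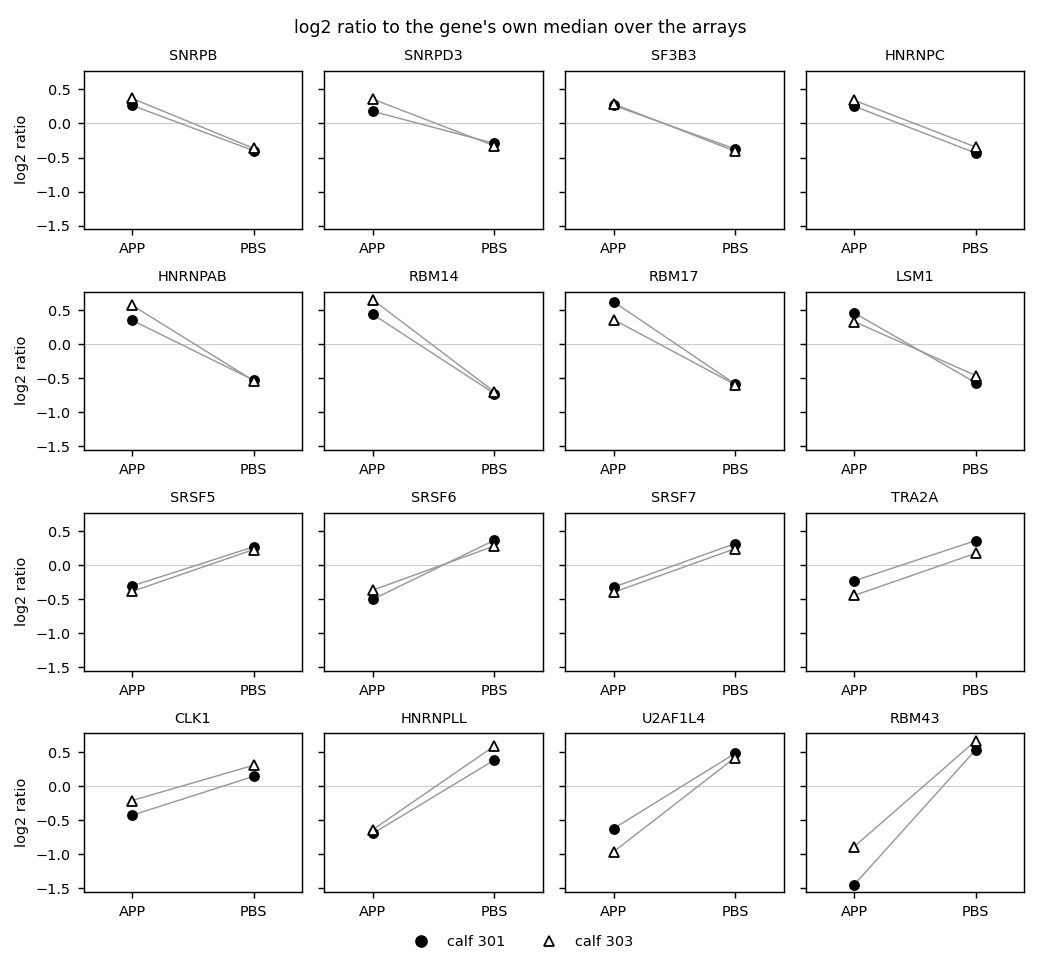
log2 ratio to the gene's own median (vertical axis) in the APP and PBS arrays of calf 301 (filled circles) and calf 303 (open triangles), joined within a calf, for 16 of the genes described. The 16 were picked from the called genes. In all 16 the APP and PBS arrays do not overlap, beside 36.6% of all genes with both APP arrays higher and 37.2% with both lower. RBM43 stands at -1.45 and -0.89 in APP against 0.54 and 0.67 in PBS.

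Probe sets of a gene did not always move together. Of 37 members with several probe sets, 12 (32.4%) had probe sets more than 0.5 apart in their change, against 34.5% of all genes with several, and in 6 of the 12 they also differed in sign. The widest gap was that of SRSF11, with 1.36 for the probe set that rose (1.55 and 1.16 in calves 301 and 303), 0.32 for the one that did not pass and -0.78 for the one that fell (-0.82 and -0.75). Within each of these probe sets both calves had the same sign, and the mean of 0.30 lies near the one that did not pass. For RBM5 the 3 probe sets ran from -1.25 to -0.22 and for SF3B1 they stood at -0.66, -0.65, -0.31 and 0.12.

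Among the genes that rose, SNRPD3 had 0.93 and 0.23, SF3B6 0.78 and 0.07, RBM28 1.22 and 0.63, PRPF39 0.65 and -0.09 and RBM18 0.65, 0.47 and -0.20. In SNRPD3, SF3B6 and PRPF39 a single probe set passed, as a rise. HNRNPDL, whose mean did not pass, had a probe set that fell (-0.45) and another at 0.25 that did not pass (adjusted p = 0.111, limma). PRPF8 ran from -0.24 to 0.29. The transcripts or ends that these probe sets cover are unknown here. Counted as probe sets, 43 of 146 rose and 30 fell, beside 16.3% of all probe sets that rose and 23.6% that fell.

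**Figure D5:**
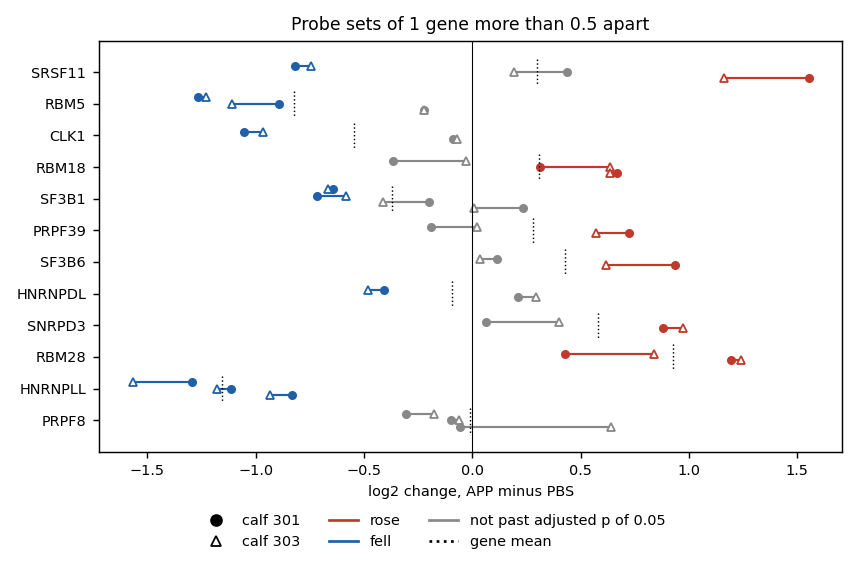
log2 change, APP minus PBS (horizontal axis), of every probe set of the 12 genes whose probe sets lie more than 0.5 apart, in calf 301 (filled circles) and calf 303 (open triangles), coloured by the probe set's call, with the gene mean dotted. The probe sets of SRSF11 stand at -0.78, 0.32 and 1.36.

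Differences between the calves (303 minus 301) reached -0.46 for SFRS18 and 0.45 for PRPF4B, beside a median size of the APP change of 0.339. In the calf term of the same fit, limma called none of the 95 genes at an adjusted p of 0.05, and 9 had an unadjusted p under it, beside 1.7% and 17.1% of all genes. With 1 residual degree of freedom, the lack of a call does not show that the calves were alike. The lowest adjusted p was 0.0752, for SFRS18, which lay lower in calf 303 (-0.29 in APP and -0.19 in PBS) than in calf 301 (0.14 in APP and 0.30 in PBS). The median gap between the APP changes of the calves was 0.0944, against 0.147 for all genes. The widest gaps after SF3A1 were those of SNRPG and RBM38, and whether the APP change itself differed between calves was not tested, since each calf gave 1 array per treatment.

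Other splicing genes, from lists drawn up by role, moved both ways. Of 99 measured, 29 (29.3%) rose and 26 (26.3%) fell, close to the shares of all genes, with a median of -0.03. Of 25 genes of further snRNP proteins, 10 rose and 5 fell, where 23.0% of all genes rose and 29.7% fell. TXNL4A, of the U5 snRNP, rose by 1.15 in each calf, while ZMAT2 (0.79) and the U5 GTPase gene EFTUD2 (0.56) rose but stood at -0.09 and -0.31 on the hybridization control scale. LUC7L3 (-1.32 and -0.98 in calves 301 and 303) and LUC7L (-0.79 and -0.67), relatives of a yeast U1 snRNP protein, fell, as did the U2 snRNP-associated HTATSF1 (-0.84 and -0.69).

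Among 23 assembly and release factors, 4 rose and 4 fell (17.4% each, below the 23.0% and 29.7% of all genes). SMU1 (0.77), XAB2 (0.46) and the helicase gene DDX39B (0.31) rose, and stood at -0.11, -0.42 and -0.56 on the hybridization control scale, while the late-acting CDC40 (-0.57), CTNNBL1 (-0.38) and TFIP11 (-0.36) fell. DDX39B and TFIP11 did not pass without the block, under quantile normalization, with the most variable probe set or in any fit that left out an array, CTNNBL1 in none of the last, and XAB2 among these only without APP 303. Of 25 other regulators, 9 rose and 9 fell (36.0% each, against 23.0% and 29.7% of all genes). SYNCRIP rose by 1.41 (0.96 to 1.76 over its probe sets), PTBP1, the polypyrimidine tract binding protein, by 1.29 and FUBP1 by 0.71, the last at -0.16 on the hybridization control scale. RBMX, the X-linked hnRNP G gene, fell by 1.57 and 1.39 in calves 301 and 303 on the log2 scale, TARDBP, the gene of TDP-43, by 0.65 and 0.85 and KHDRBS1, the gene of Sam68, by 0.46 and 0.39, with -0.73 to 0.10 over the probe sets of the last.

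Of 9 SR protein kinases and phosphatase genes outside the CLK family, 4 fell and 1 rose. The shares were 44.4% and 11.1%, against 29.7% and 23.0% of all genes. SRPK2, a cytoplasmic SR protein kinase, fell by 0.62 and 0.84 in calves 301 and 303 on the log2 scale, and the catalytic subunit genes PPP1CA (-0.53) and PPP1CC (-0.50) fell with it, while PPP2CA rose by 0.33, or stood at -0.54 on the hybridization control scale. Of 17 snRNP biogenesis and exon junction genes, 5 rose (29.4%, against 23.0% of all genes) and 4 fell (23.5%, against 29.7%). PRMT5 (1.15 and 0.89) and WDR77 (0.93 and 0.92), the enzyme and partner that methylate Sm proteins, rose and stood at 0.15 and 0.05 on the hybridization control scale, and EIF4A3 rose by 0.55, or stood at -0.33 on that scale. MAGOHB (-0.55), UPF3B (-0.51) and the cap hypermethylase gene TGS1 (-0.40) fell. PPP2CA passed in no fit that left out an array, UPF3B among these only without PBS 301 and TGS1 only without APP 303, and TGS1 did not pass without the block. SRPK2, PRMT5 and WDR77 passed in all of them, while HTATSF1 was lost without APP 301 or PBS 303, KHDRBS1 without APP 301, PBS 301 or PBS 303, LUC7L, EFTUD2 and CDC40 without PBS 303, and PPP1CA, PPP1CC, MAGOHB and EIF4A3 without PBS 301 or PBS 303. Over the 99 genes, the falls numbered 15 without the block, 9 without APP 301, 14 without APP 303, 8 without PBS 301 and 4 without PBS 303, and the rises 18, 18, 9 and 13 in the same fits without an array.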

How the data were processed

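Total RNA of the 4 cultures was labelled with biotin and hybridised to an Affymetrix bovine array, per the labels' protocols. RMA was the authors' summary method, per the submitters' processing notes, and the deposited table holds linear ratios, a unit read from its values: each of 24128 probe sets has a median over the arrays between 0.98 and 1.00, and the values are taken here as each signal over its own median. Probe set levels are not kept, no filter on dim probe sets was possible, and the number of arrays limits the precision. No pseudocount was needed.

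Ratios were log2 transformed with no further normalization, and 112 control probe sets were left out. Genes were named from the platform table, with 13263 of 13292 single-gene probe sets found by Entrez identifier in a RefSeq table of ARS-UCD2.0, and the probe sets of a gene were averaged. APP was tested with limma 3.58.1 in R 4.3.3 (lmFit, eBayes, two-sided, Benjamini-Hochberg over all 9155 genes or 24016 probe sets), with the calf as a block, since by their titles both treatments share the animals. The calf difference correlated between APP and PBS (r = 0.509 over genes, which are not replicates). With 1 residual degree of freedom, the fit borrowed 5.86 prior ones. Tested on simulated data, it recovered the known changes of at least 2-fold in nearly all cases and smaller ones less often, and false calls were on average a larger share of its calls than the threshold states. Far fewer genes were changed in the simulation than were called here (2104 rises and 2717 falls of all genes). Its recovery and its share of false calls therefore need not hold for these arrays. An exact permutation test of 2 arrays against 2 cannot go below p = 0.333 and was not made.

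Members and lists were chosen with earlier results of these data known. Genes named by rule were every SR, TRA2, CLK and U2AF1 gene, SF3B1, the largest changes per family and list, the widest gaps between calves and probe sets that differ in sign. The remaining members are given, after their values were seen, so that each is accounted for. Alternatives dropped the block, left out each array, changed the scaling, the choice of probe sets or the eBayes setting, or took members by current symbol.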

Additional observations from a re-analysis of the deposited data

Results flagged for a closer look

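The hybridization controls bioB, bioC and bioD, spiked-in bacterial transcripts that the comparisons do not use, stood higher in the APP arrays. The mean log2 ratio of their 12 probe sets was 0.29 and 0.56 in the APP arrays of calves 301 and 303, against -0.50 and -0.40 in the PBS arrays. The difference was 0.876 on average, 0.79 in calf 301 and 0.97 in calf 303, and its part in the results was not tested.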

How the results depend on the processing

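With the alternatives other than the scaling to the hybridization controls, all 37 rises and 23 falls of the splicing factor genes kept their direction. The rises of 10 genes (RBM14, RBM17, RBM28, RBM19, RBM34, HNRNPAB, HNRNPC, LSM1, SNRPB and SF3B3) and the falls of 7 (RBM43, RBM5, U2AF1L4, HNRNPLL, LSM10, SRSF6 and SRSF7) also passed the threshold in all of them. Direction could not turn without the block or with the other eBayes setting, which keep the same change. Nor could it without 1 array, since APP and PBS arrays overlapped for none of the called splicing factor genes. Without the replicate block, 1399 of all genes rose and 2161 fell, 28 and 16 of the splicing factor genes, and 22 and 15 of the other splicing genes. Of the genes given here, 19 no longer passed without the block and none reversed. Beside those given as such above, HNRNPH1, HNRNPK, HNRNPR, PRPF38B, RBM18, RBM45, SF3A3, SNRPA, SNRPB2 and U2AF1 passed in no fit that left out an array. HNRNPK, PRPF38B, RBM18, RBM45, SNRPA and SNRPB2 did not pass without the block either. Fits that left out 1 array gave 745 to 1292 rises and 1305 to 2012 falls over all genes, 11 to 23 and 8 to 13 among the splicing factor genes and 9 to 18 and 4 to 14 among the other splicing genes, with a median change of the splicing factor genes between 0.084 and 0.131. They have no block and 3 arrays, and the lone array of a group is taken to vary like the others. The median was 0.169 with the most variable probe set of each gene, which moved SFPQ to 1.98. Members by current symbol were the same 95 genes. Without the probe sets whose names end in _s_at or _x_at, HNRNPF alone lost its call. Probe sets whose names end in _a_at were kept in that setting. Arrays have no depth, and probe sets near background could not be told from others.

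Scaled to the hybridization controls, 270 of all genes rose and 8246 fell, 1 and 80 of the splicing factor genes, and 2 and 90 of the other splicing genes, and the median of the splicing factor genes was -0.757. That scaling subtracts the same amount from every gene's change, by construction. The amount was 0.79 in calf 301 and 0.97 in calf 303, which adds the same residual to every gene in the fit. Calls on that scale thus rest on another estimate of spread than the main calls. Among the splicing factor genes and the other splicing genes named above, those above 0 as deposited that then stood below it were CLK3 -0.40, DDX39B -0.56, EFTUD2 -0.31, EIF4A3 -0.33, FUBP1 -0.16, HNRNPA0 -0.81, HNRNPC -0.19, HNRNPD -0.61, HNRNPF -0.55, HNRNPH1 -0.52, HNRNPH2 -0.76, HNRNPH3 -0.41, HNRNPK -0.58, HNRNPL -0.32, HNRNPM -0.43, LSM12 -0.29, LSM2 -0.69, LSM7 -0.71, LSM8 -0.80, PPP2CA -0.54, PRPF31 -0.50, PRPF39 -0.60, PRPF4B -0.58, RBM10 -0.83, RBM15B -0.67, RBM18 -0.57, RBM22 -0.74, RBM25 -0.77, RBM3 -0.40, RBM34 -0.17, RBM38 -0.75, RBM4 -0.35, RBM47 -0.71, RBM8A -0.41, SF3A1 -0.87, SF3A2 -0.30, SF3A3 -0.56, SF3B3 -0.21, SF3B4 -0.34, SF3B5 -0.44, SF3B6 -0.45, SMU1 -0.11, SNRPA -0.53, SNRPA1 -0.25, SNRPB -0.18, SNRPB2 -0.56, SNRPC -0.69, SNRPD2 -0.34, SNRPD3 -0.30, SNRPG -0.24, SRSF1 -0.87, SRSF11 -0.58, SRSF9 -0.66, U2AF1 -0.54, XAB2 -0.42 and ZMAT2 -0.0898.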

Other observations

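SFPQ, which encodes a splicing factor of paraspeckles and was singled out after its values had been seen, had the widest spread of probe sets among the related genes that were not called. The probe set that rose had log2 ratios of 0.59 and 0.65 in the APP arrays of calves 301 and 303, against -1.12 and -1.59 in the PBS arrays (change 1.98, adjusted p = 0.000263, limma). The other 2 fell, by 1.03 and 1.17 on the log2 scale, with ratios from -1.41 to -0.22 in APP and from 0.18 to 0.54 in PBS. The gene mean changed by -0.07 (adjusted p = 0.727, limma) and by 1.98 with the most variable probe set in place of the mean.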
